A study of Drosophila melanogaster with 9 samples.

Results

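The mid L3 stage (96h after egg laying, AEL) of the *D. melanogaster* eye-antennal disc was set against both flanking stages, the late L2 stage (72h AEL) before it and the late L3 stage (120h AEL) after it. The comparison takes all 9 libraries of the series: replicates A to C at 96h AEL and replicates A to C at each flank. Its measure, called the contrast here, is the mean log2 level at 96h AEL minus the average of the mean log2 levels at 72h and 120h AEL, in which each flank has a weight of 0.5. A positive contrast is a level above the average of the flanks, and a negative contrast a level under it. All flies were OregonR, a wild-type strain, raised untreated at 25°C in controlled density. A library held 120 to 130 discs of males and females together for 72h AEL, 80 to 90 discs of females for 96h AEL and 40 to 50 discs of females for 120h AEL. Sex therefore cannot be told apart from stage between 72h AEL and the later stages. The titles of the 120h AEL libraries alone carry the word reanalysis. If this word marks a batch, a difference between batches cannot be told apart from late L3.

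The eye-antennal disc is an epithelium set aside in the larva that forms the compound eye, the antenna and most of the head capsule. In the eye field, a groove called the morphogenetic furrow moves from posterior to anterior during L3. Cells in front of it divide, and cells behind it differentiate into photoreceptors. Pulses of the steroid hormone ecdysone set off the moults between larval stages and the onset of pupation. The hormone is taken up into cells, binds the receptor made of EcR and Usp, and turns on early genes, many of which encode nuclear receptors and other transcription factors. The mid L3 stage lies between the moult to L3 and the onset of pupation.

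Reads were counted on the longest coding sequence of each gene, so that all values below refer to coding exons. Total counts ranged from 17675472 to 37305763 per library. Levels are given in CPM, which are counts relative to the TMM-scaled library size, and a gene with 3 counts, the floor used for detection, had 0.0738 to 0.148 CPM. This floor covers counting error and no difference between animals. At 72h AEL, replicates A and B did not differ beyond sampling noise (chi-square of 1.02 per gene, against 36.2 to 488 for the other 8 pairs of the same stage). They were counted as 1 sample, which gives n = 2 at 72h AEL and n = 3 at 96h and 120h AEL. Nothing beyond the term biological replicate says that the libraries of a stage came from separate cultures, so the p-values measure the spread between these samples. The 10 markers of the disc itself (among them *ey*, *eya*, *so* and *dac*) summed to 722 to 753 CPM at 72h AEL, 1793 to 2384 CPM at 96h AEL and 1502 to 1620 CPM at 120h AEL. Markers of other larval tissues were also present. The 9 muscle markers summed to 16004 to 21165 CPM at 72h AEL, 2482 to 8874 CPM at 96h AEL and 476 to 970 CPM at 120h AEL, and the midgut markers reached 45243 CPM in 72h AEL replicates A and B. In whole discs, fewer cells of a type and less RNA per cell cannot be told apart.

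Of 13676 genes, 9052 passed the filter on low counts and were tested. By edgeR's quasi-likelihood test, 655 genes (7.24%) were higher at 96h AEL than the average of the flanks and 741 genes (8.19%) were lower, which makes 1396 genes (15.4%) in either direction. The higher genes differed by less, with a median contrast of 0.75, than the lower genes, with a median of −1.72, and over all genes tested the median was −0.06. A contrast of at least 2 in size, that is 4-fold, was found for 24 higher genes and 317 lower genes. Such a contrast can come from a transient peak or trough, but also from a change that took place once and lasted. In 480 of the higher genes (5.30% of all genes tested), the mean at 96h AEL was above both flanks, and these genes are called peak-shaped in what follows. In 533 of the lower genes (5.89%) it was under both flanks, and these are called trough-shaped. The remaining 175 higher and 208 lower genes lay between the flanks. In 223 higher genes (2.46%) every library of 96h AEL was above every library of both flanks, and in 271 lower genes (2.99%) every one was under them.

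A stricter call asked that 96h AEL differ from each flank by its own test. Of the genes tested, 2170 (24.0%) were higher and 2655 (29.3%) lower at 96h AEL than at 72h AEL, whereas 598 (6.61%) were higher and 645 (7.13%) lower than at 120h AEL. With the larger of both p-values adjusted over all genes, 1 gene was called as a peak against both flanks (0.0110%) and 13 genes as troughs (0.144%). At an unadjusted p under 0.05 against each flank, there were 167 peaks and 316 troughs, and DESeq2 called 40 and 126. The counts depended on single libraries: with 96h AEL replicate B left out, 51 genes were higher and 151 lower, and with 72h AEL replicate C left out, 1346 genes were higher. Leaving out 96h AEL replicate C raised the lower genes to 1144. The libraries of 96h AEL were not equally far from the flanks. Among the 480 peak-shaped genes, replicate C had the lowest of the 3 values at 96h AEL in 418 (87.1%), and among the 533 trough-shaped genes it had the highest in 346 (64.9%).

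**Figure D1:**
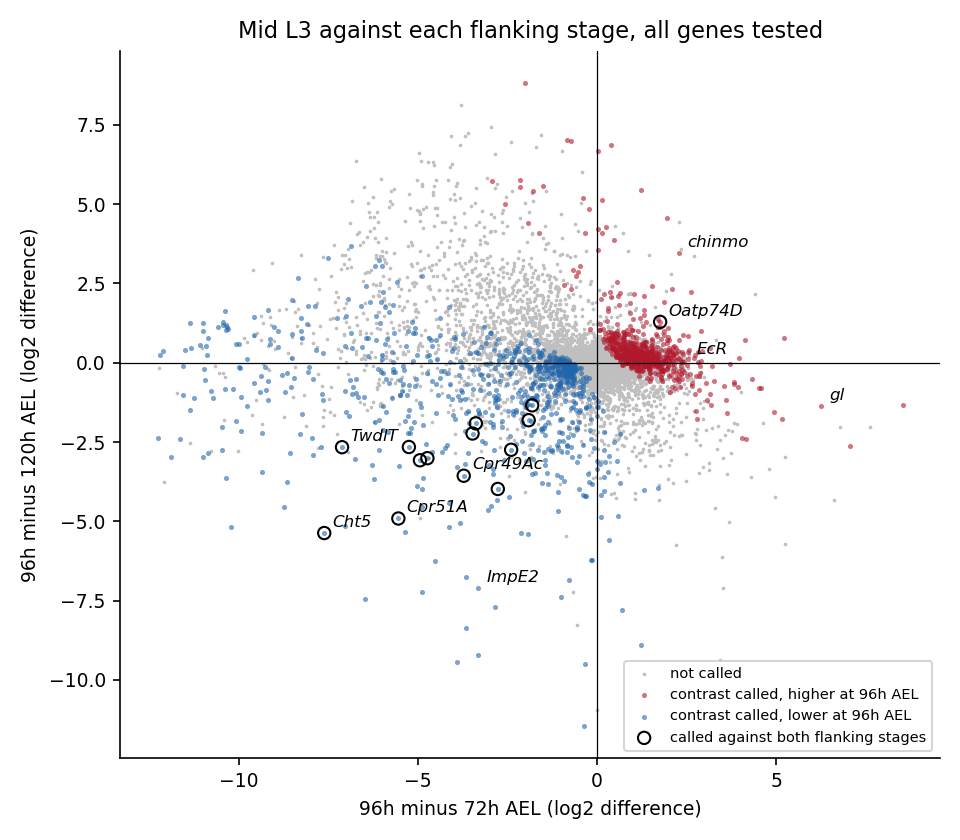
The difference between 96h and 72h AEL (x axis, log2) and between 96h and 120h AEL (y axis, log2) of the 9052 genes tested, with genes of higher contrast in red, of lower contrast in blue and all others in grey; black rings mark genes called against both flanks. Peaks lie at the upper right and troughs at the lower left, where 13 of the 14 ringed genes are found.

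Counts also followed the coding length of genes to a different degree in each library. The Spearman correlation across genes between coding length and a library's deviation from the mean was 0.57 and 0.42 in 96h AEL replicates A and B, against 0.03 in replicate C and −0.35 in 72h AEL replicate C. Genes are not independent replicates, and the correlations are given as a description. Among the genes in the longest of 3 equal length classes (from 1848 bases), 472 were higher and 137 lower, and in the shortest class (up to 969 bases) 47 were higher and 331 lower. With the length trend of each library taken out as an offset, 178 and 338 genes were called in the longest class and 170 and 327 in the shortest. Over all lengths, 526 genes were then higher, 339 of them shared with the 655, and 995 were lower, 688 of them shared with the 741. Counts with this offset are given beside most gene groups below.

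The only gene called as a peak against both flanks was *Oatp74D* (FBgn0036732, BDGP6 3L:17487118-17511693), which encodes the membrane transporter that brings ecdysone into cells. Here and below, values are given in the order of replicates A, B and C. *Oatp74D* had 45.9, 51.2 and 64.9 CPM at 72h AEL, 202, 196 and 221 CPM at 96h AEL, and 79.8, 75.8 and 85.2 CPM at 120h AEL. The 3 libraries of 96h AEL lay close together and more than all libraries of the flanks. The level at 96h AEL was 3.64-fold that at 72h AEL and 2.57-fold that at 120h AEL, with a contrast of 1.53 ± 0.12 (SE) and an adjusted p of 0.0201 against both flanks (edgeR's quasi-likelihood test). This call was lost when any library of 96h or 120h AEL was left out (adjusted p of 0.124 without 96h AEL replicate B and of 0.165 without 120h AEL replicate C) or with the length offset (0.0596), while the contrast stayed between 1.45 and 1.66 whichever library was left out.

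The genes for the receptor and its coactivator had a similar shape, with 1 library of 96h AEL nearer to the flanks. *EcR*, the ecdysone receptor, had 10.8, 11.4 and 22.2 CPM at 72h AEL, 116, 119 and 77.9 CPM at 96h AEL, and 70.1, 28.6 and 64.5 CPM at 120h AEL. All libraries of 96h AEL were above all of the flanks, and replicate C came closest to them. The contrast was 1.71 ± 0.34 (SE), with an adjusted p of 0.0235 by edgeR's quasi-likelihood test. Tested against each flank, *EcR* did not pass (adjusted p of 0.957). *tai*, which encodes a coactivator that binds EcR, had 35.4, 35.2 and 91.8 CPM at 72h AEL, 272, 286 and 138 CPM at 96h AEL, and 113, 77.5 and 113 CPM at 120h AEL. Here too the groups did not overlap, and the contrast was 1.44 ± 0.35 (SE; adjusted p = 0.0380, edgeR). *usp*, the partner of EcR, was not called, with means of 38.5, 60.3 and 55.6 CPM in the order of the stages and a contrast of 0.29. Leaving out single libraries moved the contrast of *EcR* between 1.59 and 2.02 and that of *tai* between 1.28 and 1.89, and the calls were lost without 96h AEL replicate A or B, without 120h AEL replicate C and, for *tai*, without 120h AEL replicate A or B as well.

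Of 26 tested genes of the ecdysone receptor and response, 2 were higher (*EcR* and *tai*) and 9 were lower at 96h AEL than the average of the flanks, with a median contrast of −0.64, beside 7.24% and 8.19% of all genes tested and a median of −0.06. The median difference of the list was 0.31 from 72h AEL and −0.44 from 120h AEL. The same number was called in each direction with the length offset (median −0.80). Of the 9 lower genes, 6 were trough-shaped, and the other 3 lay between the flanks. In the fit without 96h AEL replicate B, 2 were lower, and without 96h AEL replicate A or 120h AEL replicate C, 3 were.

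*ImpE2*, which was found as an ecdysone-inducible gene of imaginal discs, had the largest contrast of the list. It was at 134, 133 and 80.1 CPM at 72h AEL, at 15.9, 9.65 and 9.31 CPM at 96h AEL, and at 926, 2403 and 1234 CPM at 120h AEL. The groups lay far apart, and the late level exceeded the early one in all libraries. The contrast of −5.21 ± 0.48 (SE; adjusted p = 0.00226, edgeR) stayed called in all alternative fits, while the test against both flanks gave an adjusted p of 0.0667. *ImpL2*, a secreted protein that binds insulin-like peptides, had 112, 111 and 166 CPM at 72h AEL, 48.9, 44.7 and 67.7 CPM at 96h AEL, and 178, 231 and 196 CPM at 120h AEL. Its groups did not overlap, and the contrast of −1.72 ± 0.22 (SE; adjusted p = 0.00592, edgeR) was also kept in all alternative fits.

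The nuclear receptor genes of the response split into those with a trough and those without. *Eip78C* had 63.6, 63.3 and 48.8 CPM at 72h AEL, 30.4, 18.1 and 25.6 CPM at 96h AEL, and 56.8, 103 and 55.8 CPM at 120h AEL (contrast −1.45, adjusted p = 0.0245, edgeR). *Hr4* had 32.1, 33.5 and 36.8 CPM, then 20.5, 13.1 and 16.7 CPM, then 33.2, 79.9 and 29.4 CPM (contrast −1.36, adjusted p = 0.0492). In both, the highest library was 120h AEL replicate B, and no library of 96h AEL reached any of the flanks. *Eip78C* lost its call without 96h AEL replicate A or B (contrasts from −1.62 to −1.24 over the libraries left out), and *Hr4* lost it in most alternative fits (−1.53 to −1.03). *Hr3* had a contrast of −1.40 that was not called (adjusted p = 0.0830, edgeR), with 41.9 CPM in 120h AEL replicate B and 4.67 to 14.7 CPM in all other libraries. No trough was seen in the nuclear receptor genes *Eip75B* (contrast 0.08), *Hr39* (0.58) and *ftz-f1* (0.38). The same held for the listed genes *Eip74EF* (0.77) and *Kr-h1* (0.37), which encode other transcription factors. None of these genes was called.

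Among the other listed genes, *MsrA*, a methionine sulfoxide reductase, was trough-shaped with 70.1, 69.3 and 135 CPM, 19.8, 25.9 and 38.6 CPM, and 67.2, 66.8 and 66.9 CPM in the order of the stages (contrast −1.64, adjusted p = 0.0172, edgeR). *Cth*, which makes cysteine from cystathionine, had a smaller contrast of −0.67. *ImpE1*, *ImpE3* and the repressor gene *Blimp-1* were lower by the contrast (−1.57, −1.36 and −2.63), but their level at 96h AEL was not under that at 72h AEL: *ImpE1* went from a mean of 7.20 CPM to 11.9 CPM and then to 156 CPM. *Cyp18a1*, whose product inactivates ecdysone, fell between 72h and 96h AEL from 21.3 to 2.54 CPM and had a contrast of −1.35 (adjusted p = 0.0600). Without 96h AEL replicate A or B, *MsrA* and *Cth* were no longer called, while their contrasts stayed between −1.96 and −1.35 and between −0.72 and −0.56 over the libraries left out.

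**Figure D2:**
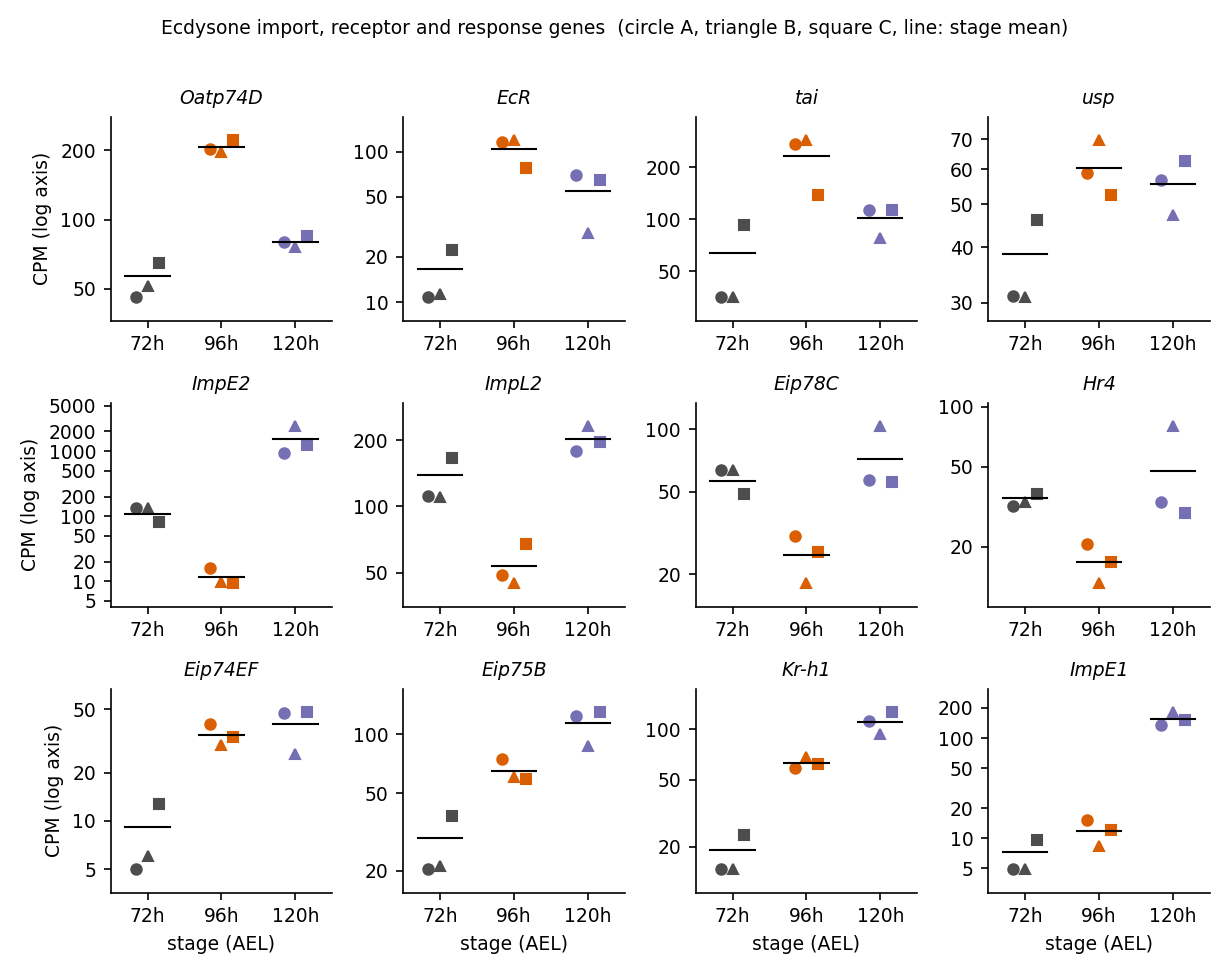
CPM (log axis) of 12 genes of ecdysone import, reception and response in each library, with stages along the x axis, circles for replicate A, triangles for B, squares for C and a line at each stage mean. *Oatp74D*, *EcR* and *tai* are highest at 96h AEL, *ImpE2*, *ImpL2*, *Eip78C* and *Hr4* are lowest there, and *ImpE1* rises at 120h AEL.

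Of the 13 genes called as troughs against both flanks, 3 encode cuticle proteins and 1 encodes a chitinase. The larval and pupal cuticles consist of chitin fibres and of proteins that bind them, most of them members of the Cpr and Tweedle families. The genes are switched on around each moult, when new cuticle is laid down and old cuticle is digested. *Cht5* (3R:13767549-13770732, BDGP6), a chitinase that acts at the moult, had the largest contrast of the 13, with 52.4, 48.2 and 45.5 CPM at 72h AEL, 0.197, 0.200 and 0.400 CPM at 96h AEL, and 7.65, 12.6 and 10.7 CPM at 120h AEL. No library of 96h AEL held more than 10 reads of this gene. The contrast was −6.49 ± 0.36 (SE), with an adjusted p of 0.00906 against both flanks (edgeR's quasi-likelihood test). It was over 0.05 without 96h AEL replicate A (0.0512) or B (0.0640) or without 120h AEL replicate C (0.0780), and the contrast then lay between −6.48 and −6.29.

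*Cpr51A* and *Cpr49Ac* encode chitin-binding cuticle proteins and came back to a level near that of 72h AEL. *Cpr51A* had 111, 115 and 112 CPM at 72h AEL, 1.5, 1.80 and 4.51 CPM at 96h AEL, and 71.4, 78.7 and 71.7 CPM at 120h AEL (contrast −5.23 ± 0.44, SE). *Cpr49Ac* had 65.3, 67.0 and 140 CPM, then 7.10, 8.28 and 9.55 CPM, then 101, 89.5 and 88.5 CPM (contrast −3.64 ± 0.28, SE). In both genes no library of 96h AEL came near any library of the flanks. *TwdlT*, a Tweedle cuticle protein gene, had 166, 164 and 120 CPM at 72h AEL and 1.5, 0.734 and 1.04 CPM at 96h AEL, and it returned only in part, to 6.0, 7.07 and 6.90 CPM at 120h AEL (contrast −4.89 ± 0.29, SE). The adjusted p against both flanks was 0.0201 for *Cpr51A* and *TwdlT* and 0.0173 for *Cpr49Ac* (edgeR).

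The 9 other troughs against both flanks were *CG15282*, *CG7080*, *CG4586*, *CG10657*, *cysu*, *CG42749*, *CG12964*, *CG13699* and *Nt5b*, with contrasts from −4.01 (*CG13699*) to −1.58 (*Nt5b*). *CG15282* had 208, 209 and 182 CPM at 72h AEL, 4.11, 4.61 and 7.83 CPM at 96h AEL, and 30.9, 37.1 and 31.0 CPM at 120h AEL. *cysu*, which encodes a heme peroxidase, had 51.7, 52.8 and 75.1 CPM, then 5.31, 7.44 and 6.87 CPM, then 18.6, 29.6 and 21.8 CPM. In these genes the level at 96h AEL was the lowest in each library, and 72h AEL was the higher flank in both. *CG4586* differed in that it was highest at 120h AEL, with 11.7, 12.2 and 19.9 CPM, 3.07, 2.24 and 2.16 CPM, and 33.5, 42.3 and 36.3 CPM. The stage means of *CG42749* and *CG12964* were about as high at 120h AEL as at 72h AEL. All 13 trough calls were lost without 96h AEL replicate A or B or without 120h AEL replicate C, while no contrast of the 13 genes changed its sign.

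**Figure D3:**
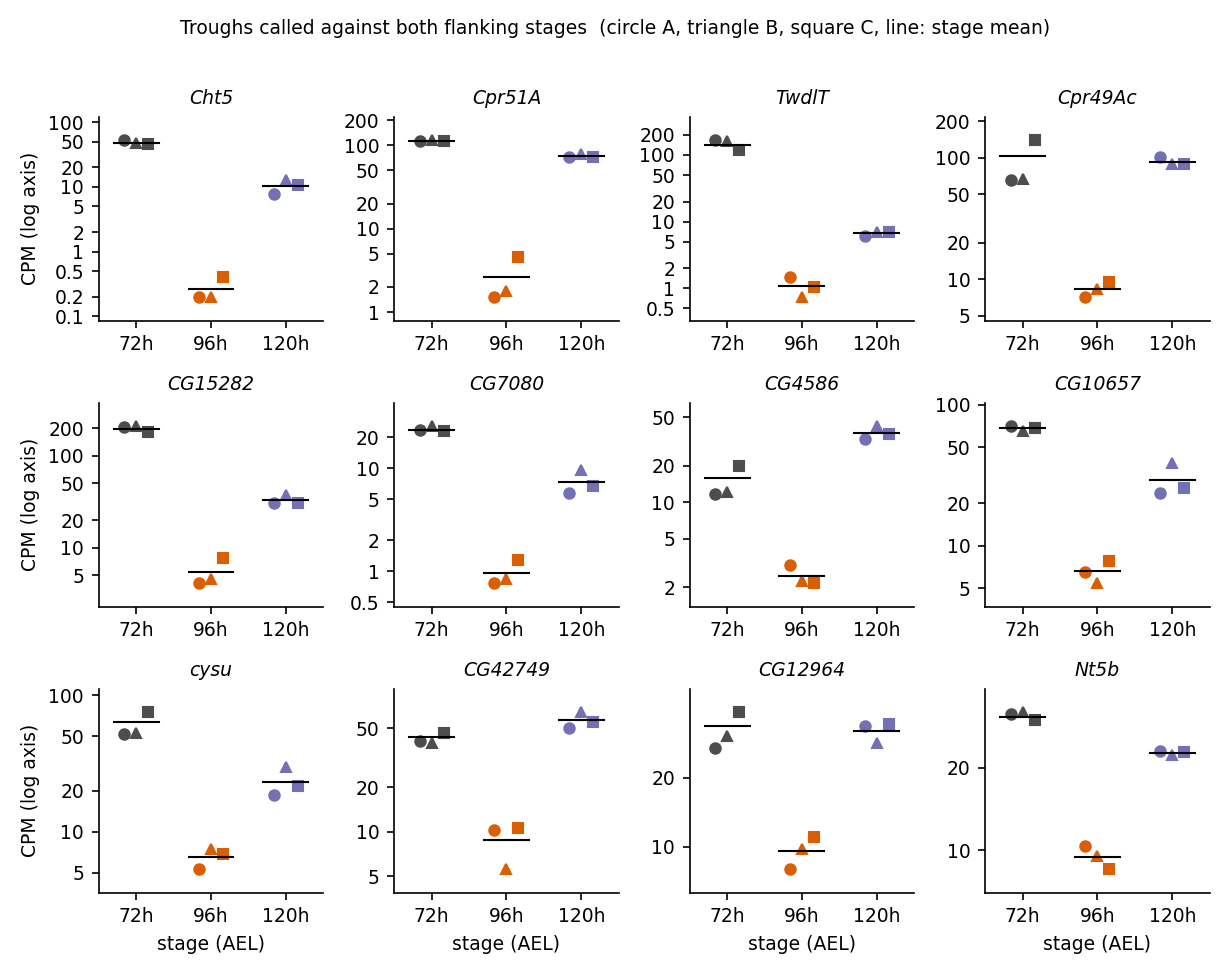
CPM (log axis) by stage of 12 of the 13 genes called as troughs against both flanks, with circles for replicate A, triangles for B, squares for C and a line at each stage mean. In all panels the 3 libraries of 96h AEL lie under all libraries of both flanks.

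Of 70 tested genes of the Cpr, Lcp and other cuticle protein families, 31 were lower (44.3%) and 4 higher (5.71%). The shares over all genes tested were 8.19% lower and 7.24% higher. The median contrast of the list was −1.74, and 15 of its lower genes were trough-shaped. As a group these genes were lowest at 120h AEL, since their median difference was −4.93 from 72h AEL and 1.34 from 120h AEL. The length offset left 29 lower and 5 higher, and without 96h AEL replicate B, 16 were lower. Of 20 tested Tweedle genes, 17 were called (85%), each of them lower (median −3.80), and 11 of these were trough-shaped. Their median difference was −7.59 from 72h AEL and −0.21 from 120h AEL. *Lcp65Ad* fell furthest among those kept in all alternative fits, from 322, 320 and 161 CPM at 72h AEL to 0.172, 0.367 and 0.719 CPM at 96h AEL, and reached 3.48, 4.55 and 4.46 CPM at 120h AEL (contrast −6.40 ± 0.52, SE; adjusted p = 0.0017, edgeR). *Cpr97Ea* (contrast −4.39), *TwdlE* (−3.71) and *dyl* (−3.40), which encodes a membrane protein that shapes the apical surface beneath the cuticle, had the same shape and were also kept. *dyl* was the only lower gene (10%) among 10 tested genes of the apical matrix, of which 1 was higher (10%) and 7 had a positive contrast (median 0.41). With the length offset, 2 of these 10 were lower and 0 higher. *TwdlE* had a mean of 49.8 CPM at 72h AEL, 2.20 CPM at 96h AEL and 14.8 CPM at 120h AEL. Of 11 tested Osiris genes, a family of membrane proteins expressed in cuticle-forming cells, 7 were lower (63.6%) and 2 higher (18.2%). The median was −2.91, or −3.04 with the 1 gene without counts in all libraries of a stage set to its bound. The median difference of the family was −7.01 from 72h AEL and −0.13 from 120h AEL. The length offset left the counts at 7 and 2, whereas 2 were lower without 96h AEL replicate B or without 120h AEL replicate C. Of the 2 higher, *Osi24* was peak-shaped, with 7.51 to 8.38 CPM, 24.4 to 32.1 CPM and 20.5 to 23.2 CPM.

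Genes of chitin synthesis and modification were mixed. Of 25 tested, 7 were lower (28%) and 1 was higher (4%), beside 8.19% and 7.24% of all genes tested. The median contrast was −0.49, with a median difference of −1.02 from 72h AEL and −0.22 from 120h AEL. With the length offset, 11 were lower. *obst-A*, a chitin-binding protein that organizes the matrix, had 160, 156 and 120 CPM, then 26.2, 31.0 and 47.9 CPM, then 84.6, 115 and 99.6 CPM (contrast −1.83, adjusted p = 0.00815, edgeR). *Cda4*, a chitin deacetylase, went down less, from 92.5 to 95.9 CPM to 49.8 to 70.4 CPM, and then to 129 to 154 CPM (contrast −0.94, adjusted p = 0.0141). The 1 higher gene was *kkv*, the chitin synthase itself: it had 143, 137 and 153 CPM at 72h AEL, 576, 543 and 346 CPM at 96h AEL, and 292, 171 and 281 CPM at 120h AEL (contrast 1.27 ± 0.23, SE; adjusted p = 0.0182). The 3 stages of *kkv* did not overlap. *obst-A* was not called without 96h AEL replicate B (contrasts from −2.15 to −1.66 over the libraries left out), and neither was *kkv* without 96h AEL replicate A or B or 120h AEL replicate C (1.13 to 1.45), while *Cda4* kept its call throughout.

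Genes of other larval tissues were sorted by the same contrast. Of 13 tested genes of the larval salivary gland (glue proteins and intermoult genes), 7 were lower (53.8%) and 1 was higher (7.69%). The shares over all genes tested were 8.19% and 7.24%. With the length offset, 7 were lower and 2 higher. *Sgs7*, a glue protein gene, had 2.34, 1.60 and 0.330 CPM at 72h AEL, 0.0738, 0.167 and 0.160 CPM at 96h AEL, and 71.7, 84.3 and 64.8 CPM at 120h AEL. *Sgs4* followed the same course, with 10.6 to 19.8 CPM at 120h AEL and no more than 4 reads in any library of 96h AEL. The glue genes were thus highest at 120h AEL and nearly without reads at 96h AEL. The higher gene was *ng3*, which was lowest at 120h AEL, with 917, 918 and 226 CPM, then 237, 303 and 496 CPM, then 1.05, 4.35 and 2.31 CPM, so that its contrast of 3.09 belongs to no peak. In the fit without 96h AEL replicate B, 4 genes were lower and *ng3* was not called (its contrast ranged from 2.71 to 3.43 over the libraries left out). The summed salivary gland markers were 2520 to 6986 CPM at 72h AEL, 489 to 933 CPM at 96h AEL and 233 to 280 CPM at 120h AEL. Their part in the troughs of the cuticle genes was not tested.

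Fat body and hemocyte genes varied between libraries of 1 stage. Of 13 tested fat body genes, 3 were lower (23.1%), each trough-shaped, and 0 higher (median contrast −0.02). Of 18 tested hemocyte genes, 2 were lower (11.1%) and 1 higher (5.56%), while 16 had a negative contrast (median −2.11). The shares over all genes tested were 8.19% lower and 7.24% higher. DESeq2 called 4 fat body and 9 hemocyte genes as lower. Without 96h AEL replicate B, edgeR called 1 and 0. The fat body markers summed to 5807 to 6356 CPM at 72h AEL, to 2050, 2362 and 6979 CPM at 96h AEL, and to 4892, 142 and 4400 CPM at 120h AEL, and the stages overlapped. *Fbp1*, the fat body receptor for larval serum protein, was lower by the contrast (−4.91), but it had 1215, 31.3 and 1082 CPM at 120h AEL and no more than 1.60 CPM in any other library. The hemocyte markers summed to 471 to 1769 CPM, 75.3 to 553 CPM and 345 to 2157 CPM. *NimC1*, a phagocytosis receptor of plasmatocytes, was trough-shaped with 11.1, 11.0 and 18.7 CPM, 1.11, 1.87 and 5.75 CPM, and 76.1, 11.7 and 66.6 CPM (contrast −3.34, adjusted p = 0.0415, edgeR), although the summed markers of the stages overlapped. The calls of *Fbp1* and *NimC1* were lost without 96h AEL replicate A or B or 120h AEL replicate A or C, with contrasts from −5.17 to −4.67 and from −4.33 to −2.93. Of 20 muscle genes and 29 midgut genes tested, 0 were called by edgeR in either direction. At an unadjusted p under 0.05, 0 muscle genes and 6 midgut genes (all lower) passed, and DESeq2 called 0 and 9.

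Among the peak-shaped genes, *CG17211*, a gene without a described role here, had the largest contrast of those with a mean above 100 CPM at 96h AEL. It had 187, 195 and 160 CPM at 72h AEL, 525, 669 and 457 CPM at 96h AEL, and 103, 85.9 and 100 CPM at 120h AEL, without overlap. Its contrast was 1.99 ± 0.16 (SE; adjusted p = 0.0017, edgeR) and was called in all alternative fits, and the test against both flanks gave an adjusted p of 0.0590. *wb*, which encodes a laminin alpha chain of the basement membrane, had 49.1, 51.3 and 62.5 CPM, then 228, 245 and 126 CPM, then 79.7, 62.8 and 75.9 CPM (contrast 1.54 ± 0.21, SE; adjusted p = 0.00768). Here replicate C of 96h AEL stood nearer to the flanks, but still above them.

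*chinmo*, a BTB zinc finger gene known for setting temporal identity in neural and imaginal cells, had 2.47, 3.05 and 3.76 CPM at 72h AEL, 27.7, 17.0 and 6.99 CPM at 96h AEL, and 1.73, 1.34 and 1.37 CPM at 120h AEL. The values at 96h AEL spread widely, but all were above both flanks, and the contrast of 2.87 ± 0.42 (SE; adjusted p = 0.00906, edgeR) was kept in all alternative fits. *fru* and *ab*, also BTB zinc finger genes, had contrasts of 1.60 and 1.22, and *zld*, known as the activator of the zygotic genome in the early embryo, had a contrast of 1.37. *fru* had 43.1, 41.5 and 77.5 CPM, then 167, 151 and 78.6 CPM, then 35.7, 12.4 and 35.9 CPM, so that 96h AEL replicate C was just above 72h AEL replicate C. The calls of *fru*, *ab* and *zld* were lost without 96h AEL replicate A or B or without 120h AEL replicate A or C, and the contrast of *fru* then ranged from 1.39 to 1.87 over the libraries left out. *CG13056* (contrast 3.26, called in all alternative fits) and *bnl*, an FGF ligand that guides tracheal branches (contrast 1.31), were peak-shaped as well. *CG13056* had 5.45 to 13.6 CPM, 31.9 to 46.0 CPM and 0.934 to 2.92 CPM.

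**Figure D4:**
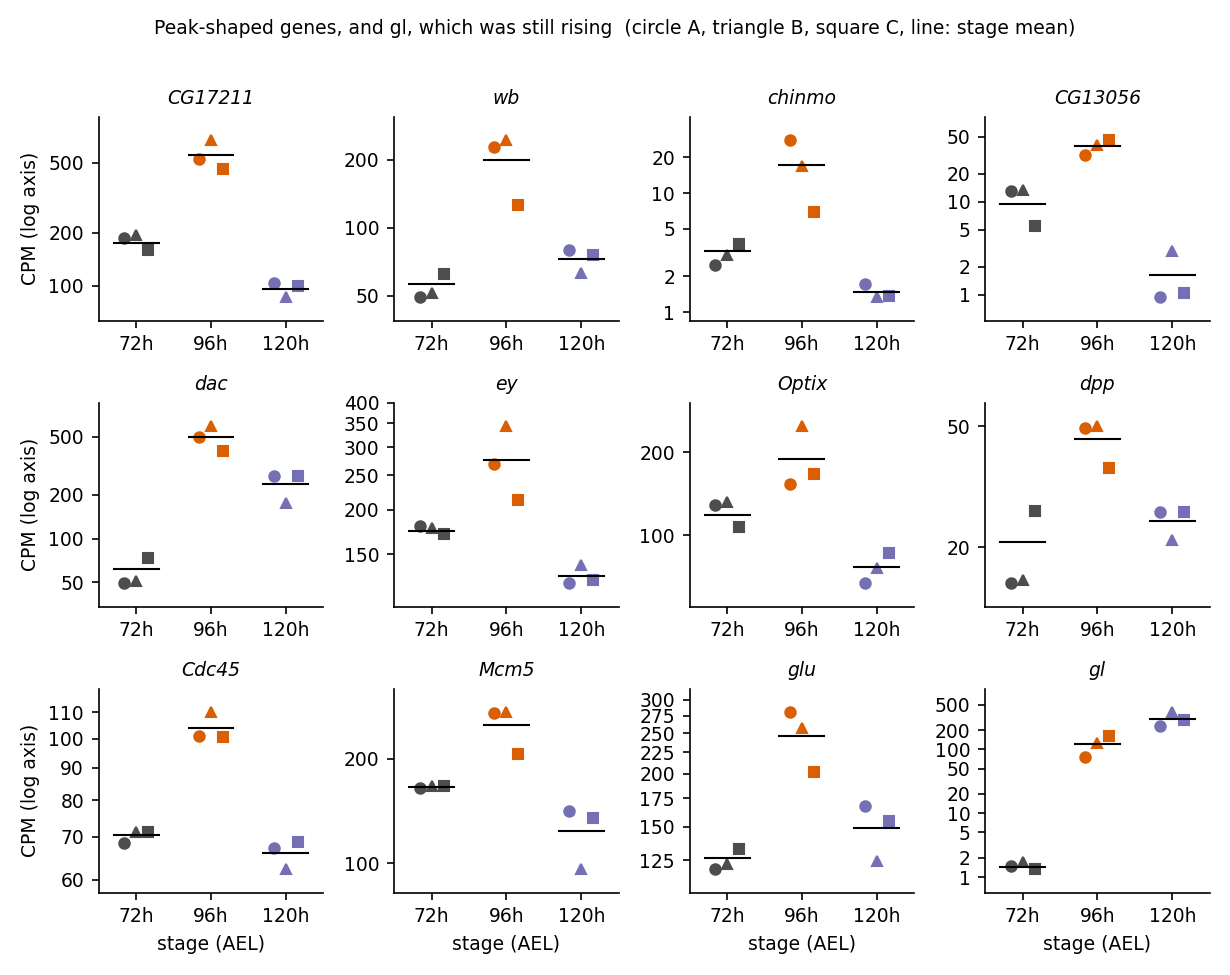
CPM (log axis) by stage of 11 genes whose mean is highest at 96h AEL and of *gl*, which is still rising at 120h AEL, with circles for replicate A, triangles for B, squares for C and a line at each stage mean. The values at 96h AEL of *chinmo* range from 6.99 to 27.7 CPM, while those of *Cdc45* range from 101 to 110 CPM.

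Of 15 tested genes listed under retinal determination, the specification of the eye field, 9 were called (60%, beside 7.24% of all genes tested). Each of the 9 was higher (median contrast of the list 0.77). Of these, 6 were peak-shaped, and 5 had every library of 96h AEL above every flanking one. *hth*, *dac*, *tsh*, *dan*, *danr* and *Lim1* are also in the antennal list below, so that these lists overlap. The median difference of the retinal list was 1.19 from 72h AEL and 0.06 from 120h AEL. The length offset left 8 higher (median 0.45), and without 96h AEL replicate B, 2 were. *dac*, a nuclear cofactor that acts at the furrow, had 49.3, 50.8 and 72.9 CPM at 72h AEL, 495, 590 and 401 CPM at 96h AEL, and 268, 175 and 267 CPM at 120h AEL. The 3 stages did not overlap, and the contrast of 1.95 ± 0.21 (SE; adjusted p = 0.00345, edgeR) was kept in all alternative fits.

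The other genes of the list had smaller contrasts. *ey*, a Pax6 gene at the top of the network, had 180, 178 and 171 CPM, then 269, 343 and 214 CPM, then 124, 140 and 127 CPM (contrast 0.77, adjusted p = 0.0238, edgeR). *Optix*, a homeobox gene of the *sine oculis* family, had 129, 133 and 107 CPM, then 153, 248 and 167 CPM, then 67.2, 76.3 and 86.5 CPM (contrast 0.89, adjusted p = 0.0248). Both were lowest at 120h AEL and their stages did not overlap. The paralogs *tsh* (contrast 0.81) and *tio* (1.21) were also peak-shaped, with 120h AEL above 72h AEL in their means. *eya*, a phosphatase and cofactor of So, stayed high after 96h AEL, with 117 to 138 CPM, 356 to 518 CPM and 346 to 374 CPM, and *so* was not called (contrast 0.29, adjusted p = 0.114). *toy*, the other Pax6 gene, had a contrast of 0.52, with 273 to 337 CPM at 96h AEL and 280 to 290 CPM at 120h AEL. Leaving out 96h AEL replicate B or 120h AEL replicate C ended the calls of *ey*, *Optix*, *tsh*, *tio*, *eya* and *toy*, and the contrast of *ey* ranged from 0.60 to 0.91 over the libraries left out.

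Of 21 tested genes of the furrow and of proneural function, 7 were called (33.3%, beside 7.24% of all genes tested). Each was higher (median 0.62), and 5 were peak-shaped. Their median difference was 1.58 from 72h AEL and −0.44 from 120h AEL. The length offset gave 10 higher and 1 lower, and 1 gene was called without 96h AEL replicate B. *hry*, the repressor Hairy that is expressed in front of the furrow, had 42.2, 42.6 and 43.4 CPM, then 95.8, 136 and 126 CPM, then 70.8, 63.4 and 82.5 CPM (contrast 1.01 ± 0.14, SE; adjusted p = 0.00842, edgeR). Only the fit without 96h AEL replicate B lost this call, and contrasts over the libraries left out ranged from 0.93 to 1.15. *sca*, a secreted protein that spaces the founder photoreceptors, had 11.6 to 16.1 CPM, 86.4 to 117 CPM and 60.9 to 89.6 CPM. Its libraries of 96h and 120h AEL overlapped, and the contrast of 1.57 was kept in all alternative fits.

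Photoreceptor genes were also called as higher, but few of them had a peak. Of 31 tested, 13 were higher (41.9%) and 1 was lower (3.23%), beside 7.24% and 8.19% of all genes tested. The median was 0.67, and 2 genes were peak-shaped (6.45%, beside 5.30% of all genes tested). Their median difference was 2.14 from 72h AEL and −1.05 from 120h AEL. The length offset gave 9 higher and 3 lower, and without 96h AEL replicate B, 5 were higher. *gl*, a zinc finger factor required for photoreceptor identity, had 1.47, 1.71 and 1.32 CPM at 72h AEL, 76.0, 124 and 164 CPM at 96h AEL, and 230, 382 and 284 CPM at 120h AEL. Its level went up in both steps, by more in the first on the log2 scale, and its contrast of 2.45 stands for an early rise and no peak. *ro* (contrast 1.57), *lz* (1.69), *B-H1* (0.88) and *B-H2* (1.01), all transcription factors of photoreceptor subtypes, and the secreted EGFR inhibitor *aos* (0.88) had the same order of stage means. *sev*, the receptor tyrosine kinase of the last photoreceptor to form, was just past the threshold (contrast 0.51, adjusted p = 0.0482), and its contrast was −0.14 with the length offset. The 2 peak-shaped genes were *ara* (0.82) and *caup* (0.65), Iroquois factors of dorsal identity, with 36.5 to 52.5 CPM and 52.3 to 73.8 CPM at 96h AEL.

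Of 26 tested genes of antennal identity and of the proximodistal axis that antenna and leg share, 11 were called (42.3%), each of them higher. The share over all genes tested was 7.24%. The median contrast was 0.58, and 5 genes were peak-shaped. *B-H1*, *B-H2*, *salm*, *salr*, *ara* and *caup* are also in the photoreceptor list. Among the peak-shaped genes, *dac* and *tsh* are counted in the retinal list as well, and *ara* and *caup* in the photoreceptor list. The median difference of the antennal list was 1.63 from 72h AEL and −0.60 from 120h AEL. The length offset gave 9 higher and 1 lower, and without 96h AEL replicate B, 4 were higher. *dan*, a factor of antennal identity that also acts with the retinal network, was higher in all alternative fits (contrast 1.83 ± 0.16, SE; adjusted p = 0.00212, edgeR). It had 7.32, 6.33 and 8.96 CPM at 72h AEL, 98.3, 126 and 105 CPM at 96h AEL, and 119, 84.6 and 119 CPM at 120h AEL, and the later stages overlapped. Its paralog *danr* had 5.53 to 7.85 CPM, 70.2 to 135 CPM and 122 to 173 CPM (contrast 1.61), with its highest mean at 120h AEL. *Sp1*, a zinc finger factor of appendage growth, was peak-shaped with 10.7 to 16.3 CPM, 31.1 to 41.2 CPM and 26.6 to 30.9 CPM (contrast 0.73).

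Signalling genes were higher rather than lower at 96h AEL by the contrast. Over the pathway lists, the median difference from 72h AEL ran from 0.80 (JAK/STAT) to 1.37 (Wg). From 120h AEL it was −0.25 for EGFR, −0.03 for Dpp, −0.02 for Notch and 0.007 for Wg. It was 0.08 for Hedgehog, 0.09 for Hippo and Fat and 0.54 for JAK/STAT. As groups these lists were thus higher at 96h AEL than at 72h AEL. Except for JAK/STAT, their medians were at most 0.09 above 120h AEL. Of 19 tested genes of the Dpp pathway, 9 were called (47.4%, beside 7.24% of all genes tested), each of them higher (median 0.58). Of these, 7 were peak-shaped, with every library of 96h AEL above every flanking one in 3. The length offset gave 7 higher. *dpp*, the BMP ligand made in the furrow, had 15.2, 15.6 and 26.3 CPM at 72h AEL, 49.2, 49.9 and 36.5 CPM at 96h AEL, and 26.1, 21.1 and 26.0 CPM at 120h AEL. The groups did not overlap at 96h AEL, and the flanks overlapped with each other (contrast 0.91 ± 0.19, SE; adjusted p = 0.0257, edgeR). *Dad*, the inhibitory Smad that the pathway turns on, had 32.5 to 47.8 CPM, 56.3 to 98.3 CPM and 39.7 to 43.9 CPM (contrast 0.91), and *bi*, a T-box target, had 14.7 to 29.2 CPM, 59.2 to 96.5 CPM and 41.1 to 48.2 CPM (contrast 1.28). The type II receptor *put* (0.58), the Smad *Mad* (0.70) and the protease *tok* (1.33), which activates TGF-beta ligands, were higher as well. Without 96h AEL replicate A or B or 120h AEL replicate C, all 9 calls were lost, and the contrast of *dpp* ranged from 0.85 to 1.15 over the libraries left out.

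In the Notch pathway, 6 of 21 tested genes were called (28.6%, beside 7.24% of all genes tested), each higher and peak-shaped (median 0.61). The length offset gave 6 as well. In 2 of the 6 genes called without it, every library of 96h AEL was above every flanking one. The receptor gene *N* had 38.7, 37.6 and 84.7 CPM, then 474, 389 and 279 CPM, then 392, 222 and 377 CPM (contrast 1.33), so that 96h and 120h AEL overlapped. *fng*, the glycosyltransferase that modifies the receptor, had 110 to 146 CPM, 246 to 302 CPM and 156 to 184 CPM, without overlap (contrast 0.80, adjusted p = 0.0139, edgeR). The corepressor *gro* had a contrast of 0.76. A single gene of the pathway was called without 96h AEL replicate B. Of 14 tested genes of the Enhancer of split complex and its relatives, many of them targets of the pathway, 2 were higher (14.3%). This list also holds *gro*, which is counted in the Notch list as well. Its members *Brd*, *Tom*, *Ocho*, *BobA* and *E(spl)m4-BFM* are also in the furrow list. The median contrast of the list was 0.54, and its median difference was 1.34 from 72h AEL and −0.85 from 120h AEL. With the length offset 7 were higher (median 0.69), and both calls were lost without 96h AEL replicate B.

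Of 17 Hedgehog genes, 3 were called (17.6%, beside 7.24% of all genes tested), each higher and peak-shaped, among them the receptor *ptc* (contrast 0.72) and the coreceptor *boi* (1.21), and 1 was higher with the length offset. Of 24 Wg genes, 3 were called (12.5%), each higher, and 4 with the length offset, and the coreceptor *arr* was kept in all alternative fits (contrast 1.43; 23.4 to 37.2 CPM, 181 to 238 CPM and 136 to 214 CPM). *fz2*, a Wg receptor, had a contrast of 1.24. Of 9 JAK/STAT genes, 2 were higher (22.2%), also with the length offset, and the ligand gene *upd1* had 5.76 to 8.80 CPM, 7.19 to 16.1 CPM and 2.41 to 3.08 CPM (contrast 1.34), so that 96h AEL replicate C was within the range of 72h AEL. Of 23 EGFR genes, 7 were called (30.4%), each higher, with 1 of them peak-shaped, and 5 with the length offset. *Egfr* itself went from 54.7 to 84.1 CPM to 193 to 303 CPM and then 190 to 266 CPM (contrast 0.89). Of 21 Hippo and Fat genes, 6 were called (28.6%), each higher and peak-shaped (median 0.63), and 5 with the length offset (median 0.17). In 3 of the 6, every library of 96h AEL was above every flanking one, against 0 of the Hedgehog, Wg, JAK/STAT and EGFR genes. The cadherin *ft* (contrast 1.08), the FERM protein *ex* (1.24), the Golgi kinase *fj* (0.69) and the apical determinant *crb* (1.09) were among the 6 called genes. *ft* has a long coding sequence, and with the length offset its contrast was 0.24 and was not called. Leaving out 96h AEL replicate B ended most of these calls, when 1 EGFR gene was called and all 6 calls of the Hippo and Fat genes were lost.

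Of 38 tested genes of DNA replication, 15 were called, each higher and peak-shaped (39.5% of the list, beside 5.30% of all genes tested), and in 12 of them every library of 96h AEL was above every flanking one. The median contrast was 0.47. Under the length offset, 13 were higher and the median was 0.29. *Cdc45*, a subunit of the replicative helicase, had 68.4, 71.2 and 71.2 CPM at 72h AEL, 101, 110 and 101 CPM at 96h AEL, and 67.1, 62.3 and 68.8 CPM at 120h AEL. The flanks were nearly level, and the spread within 96h AEL was small beside the difference (contrast 0.52 ± 0.08, SE; adjusted p = 0.0137, edgeR). *Mcm5*, of the same helicase, had 165, 167 and 167 CPM, then 271, 272 and 207 CPM, then 142, 96.2 and 135 CPM (contrast 0.70). The licensing genes *Orc2* (0.50), *Cdc6* (0.72) and *dup* (0.58), the polymerase gene *PolE1* (0.85) and *Mcm7* (0.65) were also higher. *PCNA*, the sliding clamp, had 467 to 564 CPM, 404 to 476 CPM and 288 to 327 CPM (contrast 0.09) and was not called.

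Of 60 tested genes of mitosis, 24 were called, each higher and peak-shaped (40% of the list, beside 5.30% of all genes tested). The median was 0.54, and 18 stood apart from every flanking library. With the length offset, 17 were higher and the median was 0.28. *glu*, a condensin subunit, had 119, 123 and 133 CPM, then 280, 257 and 202 CPM, then 168, 125 and 155 CPM (contrast 0.75, adjusted p = 0.0230, edgeR), and its contrast was 0.24 with the length offset, without a call. The condensin genes *SMC2* (0.70) and *Cap-D2* (0.80), the spindle gene *asp* (0.82) and *scra* (0.73), which encodes anillin of the cleavage furrow, lost their calls with the offset as well. *CycB3* (0.66) and the Cdc25 phosphatase *twe* (1.09) kept theirs. *twe* had 3.32 to 4.50 CPM, 8.59 to 11.8 CPM and 4.75 to 5.38 CPM. The other Cdc25 phosphatase, *stg*, which times entry into mitosis in discs, had 95.7 to 105 CPM, 274 to 359 CPM and 258 to 330 CPM, with overlap between the later stages (contrast 0.86). *CycA* (0.69, adjusted p = 0.0670), *CycB* (0.54, 0.0919) and *polo* (0.60, 0.0515) were not called by edgeR. The S phase regulators *CycE* (0.88) and *E2f1* (0.87) were called.

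The calls of both cell cycle groups changed with single libraries. Without 96h AEL replicate B or without 120h AEL replicate C, all 15 calls of DNA replication were lost, and without 96h AEL replicate A or 120h AEL replicate A, 2 and 4 genes were called. In mitosis, the fit without 96h AEL replicate B lost all 24 calls, and 1, 2 and 4 genes were called without 120h AEL replicate C, 96h AEL replicate A and 120h AEL replicate A. The contrast of *Cdc45* ranged from 0.49 to 0.55 and that of *Mcm5* from 0.65 to 0.81 over the libraries left out. DESeq2 called 25 of the 38 replication genes and 42 of the 60 mitosis genes as higher.

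Of 46 tested genes of the Polycomb and Trithorax groups, which maintain silent and active chromatin, 15 were called (32.6%), each higher (median 0.58). The share over all genes tested was 7.24%. Of the 15, 12 were peak-shaped, and in 1 of them every library of 96h AEL was above every flanking one. The median difference of the list was 1.05 from 72h AEL and 0.16 from 120h AEL. These genes are long, with a median coding length of 4522.5 bases against 1350 over all genes tested, and with the length offset 4 were higher and 1 was lower (median 0.13). The fit without 96h AEL replicate B lost all 15 calls, and 1 gene was called without 96h AEL replicate A, 120h AEL replicate A or 120h AEL replicate C. *ash1* (contrast 0.77), *Jarid2* (0.87) and *brm* (0.63) lost their calls with the offset, whereas *jing* (1.30) kept it. *jing* had 23.2, 23.1 and 45.6 CPM, then 191, 183 and 106 CPM, then 112, 100 and 111 CPM, and its libraries of 96h and 120h AEL overlapped. *mxc*, a component of the histone locus body, had 36.0 to 48.1 CPM, 91.8 to 116 CPM and 71.6 to 81.6 CPM (contrast 0.82).

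Genes of energy metabolism were lower by the contrast or not called. Their median difference from 72h AEL was −1.50 for glycolysis, −1.23 for oxidative phosphorylation and −0.79 for the citric acid cycle. From 120h AEL it was 0.10, 0.28 and 0.66 in the same order. As groups they were thus lower at 96h AEL than at 72h AEL, but not lower than at 120h AEL. Of 12 tested glycolytic genes, 7 were called (58.3%, beside 8.19% of all genes tested), each lower (median −0.62), and 3 were trough-shaped. The length offset gave 9 lower, with library size alone in place of TMM 2 were, and without 96h AEL replicate B all 7 calls were lost. *Tpi*, triosephosphate isomerase, had 390, 389 and 349 CPM at 72h AEL, 129, 126 and 137 CPM at 96h AEL, and 153, 165 and 201 CPM at 120h AEL (contrast −1.04 ± 0.14, SE; adjusted p = 0.00639, edgeR). Its libraries of 96h AEL were the lowest, without overlap. *Pgk* had a similar but smaller trough (contrast −0.51), with 361 to 402 CPM, 237 to 276 CPM and 277 to 331 CPM. *Ald1* had a contrast of −0.81. *Gapdh1* was lower by the contrast (−0.72) but had no trough, with 1367, 1365 and 1185 CPM, then 397, 359 and 350 CPM, then 262, 205 and 299 CPM. Of 14 genes of the citric acid cycle, 2 were lower (14.3%). Among them was *Idh* (−0.55), with 852 to 990 CPM, 560 to 637 CPM and 649 to 758 CPM.

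Of 67 genes of oxidative phosphorylation, edgeR called 0 in either direction, with a median of −0.46. At an unadjusted p under 0.05, 35 of them were lower and 0 higher, and DESeq2 called 29 as lower and 0 as higher. Of 72 mitochondrial ribosomal protein genes, 5 were called (6.94%, beside 8.19% of all genes tested), each lower (median −0.43), and 10 with the length offset (median −0.23). The median difference of this list was −0.83 from 72h AEL and −0.01 from 120h AEL. Of 75 cytoplasmic ribosomal protein genes, edgeR called 0 (median −0.22, or 0.05 with the length offset), with 1 lower at an unadjusted p under 0.05 and 0 by DESeq2. Of 34 genes of ribosome biogenesis, 4 were called (11.8%), each lower (median −0.15), and 10 with the length offset, while all 4 calls were lost without 96h AEL replicate B. Of 30 nuclear pore genes, edgeR called 0 (median 0.23), with 14 higher at an unadjusted p under 0.05 and 12 higher by DESeq2. With library size alone in place of TMM, which moved the median of all genes up by 0.24, the medians of the ribosome biogenesis (0.09), cytoplasmic ribosomal protein (0.03) and citric acid cycle genes (0.19) were above 0.

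Of 81 detoxification genes (cytochromes P450 and glutathione transferases), 7 were lower (8.64%) and 2 higher (2.47%). *Cyp4e2* had 77.4, 76.8 and 22.5 CPM, then 5.24, 4.07 and 12.3 CPM, then 36.6, 15.5 and 30.8 CPM (contrast −2.46), and *GstO3* had 103 to 119 CPM, 61.8 to 98.2 CPM and 175 to 196 CPM (contrast −1.03). Of 24 retinal glia genes, 3 were higher and 3 lower (12.5% each). Among the lower was *moody*, a receptor of the glia that form the blood-brain barrier, with 13.8 to 16.7 CPM, 9.92 to 10.1 CPM and 17.6 to 19.9 CPM (contrast −0.83), and among the higher *nrv2*, a sodium pump subunit of glia, with 95.3 to 97.4 CPM, 141 to 185 CPM and 95.8 to 126 CPM (0.55). The synaptic gene *Syt1* (−2.03) and *ry*, the xanthine dehydrogenase of the red eye pigment pathway (−2.01), were trough-shaped, as was *Buffy*, a Bcl-2 family gene (−2.01), with 5.85 to 6.36 CPM, 0.762 to 1.04 CPM and 1.88 to 1.95 CPM. Each was the only lower gene of its list. Tested were 14 synaptic (7.14% lower), 19 eye pigment (5.26%) and 17 cell death genes (5.88%), beside 8.19% of all genes tested. The list medians were 0.20, −0.23 and −0.15, and 1 eye pigment gene was higher. Of 15 sex determination genes, 3 were called (20%), each higher (2 with the length offset). Among them was *Sxl* (0.86), with 32.3 to 61.2 CPM, 138 to 191 CPM and 152 to 178 CPM, where sex and stage cannot be told apart. Of 20 heat shock genes, *Hsp68* alone was higher (5%, beside 7.24% of all genes tested), and 0 were with the length offset. *Hsp68* had a contrast of 1.55, with 151, 476 and 585 CPM at 96h AEL and 49.1 to 271 CPM in the flanks. Without 96h AEL replicate B, none of *Cyp4e2*, *GstO3*, *moody*, *nrv2*, *Syt1*, *ry*, *Buffy*, *Sxl* and *Hsp68* was called, and over all libraries left out the contrast of *Cyp4e2* ranged from −3.11 to −2.16 and that of *Hsp68* from 1.15 to 1.94.

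**Figure D5:**
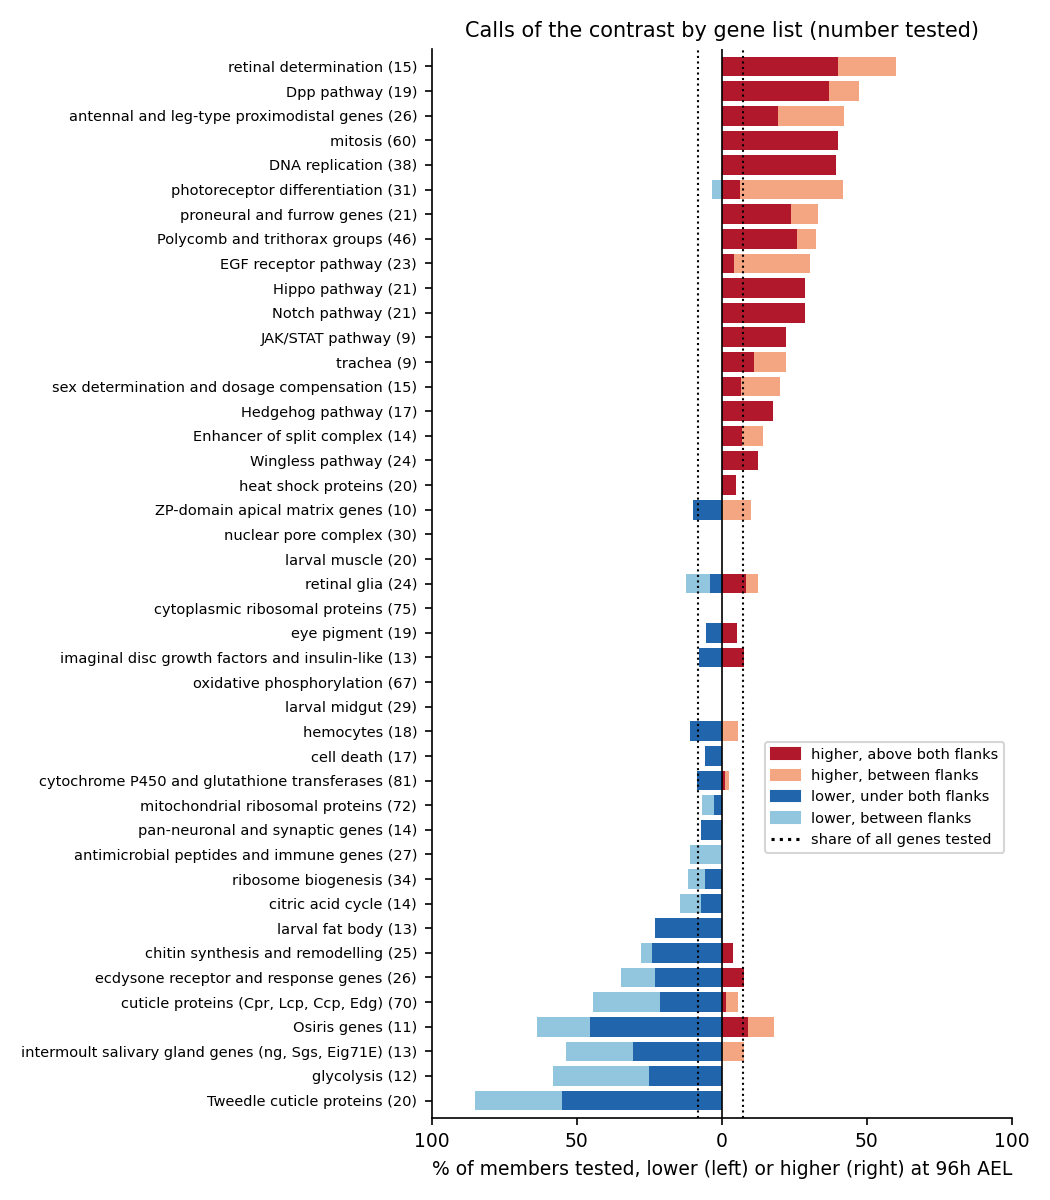
Percent of the tested members of each gene list that were higher (bars to the right) or lower (bars to the left) at 96h AEL than the average of the flanks, with the dark part of each bar for members whose mean was above or under both flanks. Dotted lines mark the shares of all genes tested, 7.24% higher and 8.19% lower, and the Tweedle, cuticle, ecdysone, DNA replication and mitosis lists extend beyond them.

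The 1396 called genes were also placed in the 13 co-expression clusters that the authors built from the same counts, so that the clusters and the contrast are not independent. Of the 655 higher genes, 268 were in cluster 10 and 191 in cluster 9, and all 191 of the latter were peak-shaped. Of the 741 lower genes, 195 were in cluster 1, 125 in cluster 5, 115 in cluster 2 and 93 in cluster 4. All 125 in cluster 5 were trough-shaped, out of 271 tested genes of that cluster (46.1%). In cluster 1, 97 were trough-shaped. Every library of 96h AEL was under every flanking one in 29 genes of cluster 1 and in 113 of cluster 5. The 13 troughs against both flanks were spread over cluster 2 (6 genes), cluster 5 (5 genes), cluster 1 and cluster 13, and *Oatp74D* was in cluster 9. The higher genes had a median coding length of 2700 bases and the lower genes one of 1044 bases. Of the higher genes with a position, 23.8% were on the X chromosome, against 13.6% of the lower genes and 16.2% of all genes tested. The 72h AEL libraries alone held discs of males, and the part of sex in this difference was not tested.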

How the data were processed

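RNA from OregonR eye-antennal discs was sequenced in 9 libraries, 3 per stage. The authors deposited raw counts per gene. To make them, they took the longest coding sequence as the target for every FlyBase gene (r5.55), aligned single-end reads that had not been trimmed to these targets with Bowtie2, and tallied the alignments with SAMtools 0.1.19. Neither strand nor normalization entered. Reads from near-identical copies cannot be assigned with certainty, which affects the Tweedle, cuticle and glue protein genes. The cluster number of each of 8836 genes, a category without a unit, is also as the authors deposited it. Names and positions came from the BDGP6 annotation, a later release than the one used for alignment. It held 13406 of the 13676 genes, and the other 270 have no name here. Promoter motifs and sequences were not analysed here, and Y-linked genes were left out of the text.

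Total counts ranged from 17675472 to 37305763. Replicates A and B of 72h AEL were summed (chi-square per gene under 1.5, for genes that reached 20 counts in the pair), which left 8 samples, and their mean was averaged with replicate C for the stage mean. Genes at or under 145 normalized counts in every sample were left out by a filter built after the HTSFilter method (100 thresholds from 1 to 200, loess span 0.3), which left 9052. All 3 stages were fitted together in edgeR 4.0.16 (R 4.3.3, limma 3.58.1) with TMM, and the contrast, 96h minus 72h AEL and 96h minus 120h AEL were tested by quasi-likelihood, two-sided, with Benjamini-Hochberg adjustment over all genes and a threshold of 0.05. A call against both flanks used the larger of both p-values where the differences had the same sign. The standard error is the absolute contrast over the square root of the F statistic. The test was checked on simulated data. Python 3.11.15, numpy 2.4.6, pandas 2.3.3 and matplotlib 3.10.9 made summaries and figures.

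The members and the 43 gene lists were chosen with earlier results of these data known, and lists were described by counts and medians without a test. Some genes belong to more than 1 list and are counted in each. Genes that did not belong to a list by function, most of them matched through a synonym, were taken out after its values were seen. Named by rule were up to 10 peaks and 10 troughs against both flanks with the largest contrast, at least 10 CPM in the highest stage and no overlap, and the genes of the ecdysone list. All other named genes were chosen after their values were seen. Alternatives were DESeq2 1.42.0, DESeq2 size factors, library size only, no filter, filterByExpr, replicates A and B of 72h AEL apart, thresholds of 0.01 and 0.1, a length offset (loess span 0.5), the replicate letter as a block, and each library left out.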

Additional observations from a re-analysis of the deposited data

How the results depend on the processing

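Of the 128 named genes with a call, 22 kept it in all alternative fits, and only the contrast of *sev* (0.51) changed its sign, to −0.14 with the length offset and −0.19 with the replicate block and the length offset. DESeq2 lost none of the 128 calls, the length offset lost 24, library size alone lost 15, the replicate block lost 100 and the block with the length offset lost 90. Leaving out 96h AEL replicate B lost 106, 120h AEL replicate C 97, 96h AEL replicate A 88, 120h AEL replicate A 75 and 120h AEL replicate B 44, whereas 96h AEL replicate C lost 16 and 72h AEL replicate C lost 9. These fits have 1 sample fewer, and without 72h AEL replicate C the lone sample of that stage is assumed to vary like the others. Over single libraries left out, 51 to 1346 genes were higher, 151 to 1144 lower, 0 to 1 were peaks against both flanks and 0 to 16 troughs. Without both 72h AEL replicates A and B, 212 genes were higher and 381 lower.

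A threshold of 0.01 for the adjusted p lost 101 of the 128 calls. It left 57 higher genes, 160 lower genes, 0 peaks and 1 trough by edgeR (at an unadjusted p under 0.05 there were 167 peaks and 316 troughs), and a threshold of 0.1 gave 1518, 1469, 4 and 33. DESeq2 gave 1518, 1564, 40 and 126, with 52 genes without an adjusted p. With replicates A and B of 72h AEL apart, the counts were 1532, 1434, 5 and 38. Library size alone shifted the median contrast by 0.24 and gave 1300 higher and 482 lower genes and 8 troughs, so that 73.0% of the calls were higher, against 46.9% with TMM. With the length offset, 34.6% of the calls were higher, with 526 higher and 995 lower genes, and there were 0 peaks and 21 troughs (168 and 408 at an unadjusted p under 0.05). Between 96h and 120h AEL, libraries with the same letter correlated at r from 0.0997 to 0.148 in their deviations and libraries with different letters at r from −0.18 to −0.01. With 72h AEL, the same letter gave r from −0.43 to 0.13, so the letters were not taken as pairs. The replicate block gave 61 higher genes, 215 lower genes, 0 peaks and 0 troughs (90 and 242 at an unadjusted p under 0.05), and with the length offset 113, 355, 0 and 1. The cause of these changes was not tested. Depth limited the lowest levels: 3 counts corresponded to 0.0738 to 0.148 CPM, and for *Cht5*, *Sgs4* and *Sgs7* the level at 96h AEL rests on 10 reads or fewer in a library.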
